A study of Mus musculus with 2 samples.

Results

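The alpha and beta tubulin isotypes are the protein subunits of microtubules. Here they are 10 genes, chosen by their symbols among the 55536 genes of the gene tables made with GENCODE release M21: the 4 alpha genes Tuba1a, Tuba1b, Tuba1c and Tuba4a, and the 6 beta genes Tubb2a, Tubb2b, Tubb3, Tubb4b, Tubb5 and Tubb6. All 10 were found. The choice applied no threshold to measured values, but earlier results of these data were known when it was made. The tissue was the facial prominence, which forms the face, of B6NCrl mouse embryos aged 12.5 days. PolyA RNA was sequenced in 2 libraries of mixed sex, of which replicate 2 pooled 88 embryos and replicate 1 pooled 120. Each library was made from 10 ng of RNA by oligo-dT priming, with ERCC spike-in RNAs added and Nextera tagmentation. Both libraries belong to 1 group, for which the labels name no allele or treatment, so no conditions could be compared. The embryos of each library were pooled, so the spread between embryos was not measured.

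An alpha and a beta tubulin join into a dimer, and dimers stack end to end into the wall of a microtubule, which carries cargo, shapes cells and builds the mitotic spindle and the axoneme of cilia. Each family is encoded by several genes, the isotypes, whose proteins are alike over most of their length. Their acidic tail at the C-terminus lies on the outside of the microtubule and is the site of most tubulin modifications. Dividing cells and neurons use different mixtures: Tuba1b, Tubb5 and Tubb4b are broadly expressed, Tuba1a, Tubb2a and Tubb2b are abundant in the developing nervous system, and Tubb3 is widely used as a marker of neurons.

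Expected counts over genes, which are estimated read numbers that need not be whole, summed to 39819334 in replicate 2 and 27887968 in replicate 1. Replicate 2 was thus the more deeply sequenced library. Levels are given in TPM, an abundance corrected for transcript length and library size, with mean ± SD over n = 2. An exact sign-flip test over 2 libraries cannot go below p = 0.5, so no p-values are given. All 6 markers of facial mesenchyme exceeded a TPM of 1 in both libraries, with summed levels of 729.6 TPM in replicate 2 and 728.4 TPM in replicate 1, among them Msx1 at 308.4 and 318.6 TPM in replicates 2 and 1. All 6 markers of epithelium and all 6 of skeletal muscle also exceeded a TPM of 1 in both libraries, and so did all 12 neuron markers. In such bulk samples fewer cells of a type and less RNA per cell cannot be told apart.

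The last 60 coding bases of 7 of the genes, stop codon included, encode the C-terminal tail. They are given 5′ to 3′ on the coding strand, with the last sense codon in capitals, from the GENCODE M21 transcripts on mm10. Every tail shown lies in exon 4 of a transcript with 4 exons.
Tuba1c: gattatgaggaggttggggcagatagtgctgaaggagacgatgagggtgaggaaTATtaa
Tuba4a: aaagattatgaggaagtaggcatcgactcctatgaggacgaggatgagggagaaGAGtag
Tubb2a: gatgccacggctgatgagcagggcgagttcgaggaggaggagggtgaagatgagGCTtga
Tubb2b: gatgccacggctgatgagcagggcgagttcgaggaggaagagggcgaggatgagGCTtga
Tubb3: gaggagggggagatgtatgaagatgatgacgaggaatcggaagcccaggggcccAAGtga
Tubb4b: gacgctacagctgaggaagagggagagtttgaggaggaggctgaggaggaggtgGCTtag
Tubb5: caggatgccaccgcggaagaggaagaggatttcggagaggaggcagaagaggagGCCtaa
Tuba1c (chr15:99037950-99038009, plus strand) ends in a tyrosine codon. The terminal tyrosine is the residue that can be removed and added back in the detyrosination cycle. Tuba4a (chr1:75215622-75215681, minus strand) ends in a glutamate codon, so its transcript does not encode that tyrosine. Its sequence was read from Tuba4a-202, because its leading transcript Tuba4a-201 has no annotated start codon. Among the beta genes, Tubb2a (chr13:34074468-34074527, minus strand) and Tubb2b (chr13:34127471-34127530, minus strand) differed at 3 of 60 bases. None of these 3 changes the encoded residue. Tubb4b (chr2:25222308-25222367, minus strand) and Tubb5 (chr17:35834982-35835041, minus strand) differed from each other at 24 bases, and these 4 beta genes end in an alanine codon. Tubb3 (chr8:123421623-123421682, plus strand) alone among the 7 genes printed ends in a lysine codon. Its tail differed from those of the other beta genes at 33 to 36 bases. All these counts compare the tails position by position from the stop codon, without gaps, so a shift in length raises them. The tails of the other 3 genes are not shown.

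The start of the coding sequence matters for tubulin for another reason: the N-terminus emerging from the ribosome is recognised by TTC5, which triggers decay of tubulin mRNA when free dimers are in excess. The first 12 coding bases are given for an alpha and several beta genes, with codons 2 to 4 in capitals.
Tuba1a: atgCGTGAGTGC
Tubb2b: atgCGAGAGATC
Tubb3: atgAGGGAGATC
Tubb5: atgAGGGAAATC
The capitals of Tuba1a encode arginine, glutamate and cysteine, and those of the 3 beta genes encode arginine, glutamate and isoleucine, with synonymous codons that differ in part between these genes. Tubb4b has the same 12 bases as Tubb3. Ttc5 itself had 74.4 TPM in replicate 2 against 76.0 TPM in replicate 1.

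The 10 isotypes together made up 4880 TPM in replicate 2 and 5180 TPM in replicate 1, 0.488% and 0.518% of all transcripts in replicates 2 and 1. Every isotype exceeded a TPM of 1 in both libraries, and the lowest expected count of a member was 394. The levels spanned more than 100-fold, with Tuba1a highest and Tuba4a lowest in both libraries.

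Tuba1a, the main alpha isotype of the developing brain, reached 1839 TPM in replicate 2 and 2054 TPM in replicate 1 (1946 ± 151.8 TPM, SD, n = 2). It ranked 23 among protein-coding genes by mean TPM and lies at chr15:98949837-98953703 on the minus strand. Tuba1b, a broadly expressed isotype at chr15:98931425-98934565 on the minus strand, had 1249 TPM in replicate 2 and 1264 TPM in replicate 1 (1256 ± 10.3 TPM). It ranked 52. Tuba1a was 1.47-fold above Tuba1b in replicate 2 and 1.63-fold above it in replicate 1, and the libraries of these genes did not overlap. Tuba1c, another broadly expressed gene of the same cluster at chr15:99029891-99038110 on the plus strand, had far less, with 80.2 TPM in replicate 2 against 77.6 TPM in replicate 1 (78.9 ± 1.84 TPM). Tuba4a, which is best known from adult tissues such as brain and muscle, had 14.6 TPM in replicate 2 and 12.7 TPM in replicate 1 (13.7 ± 1.35 TPM) and lies apart from the cluster at chr1:75214228-75219865 on the minus strand. Its 618 and 394 expected counts in replicates 2 and 1 make it the least precisely measured member.

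Tubb5, the class I isotype of dividing cells, was the highest beta gene, with 993.5 TPM in replicate 2 and 994.2 TPM in replicate 1 (993.8 ± 0.523 TPM). It ranked 71 among protein-coding genes and lies at chr17:35833921-35838306 on the minus strand. Tubb4b, the broadly expressed class IVb isotype at chr2:25222160-25224702 on the minus strand, followed with 346.5 TPM in replicate 2 and 352.9 TPM in replicate 1 (349.7 ± 4.54 TPM). Tubb5 was thus 2.87-fold above Tubb4b in replicate 2 and 2.82-fold above it in replicate 1. Of the isotypes known from neurons, Tubb2a at chr13:34074274-34078007 on the minus strand had 126.7 TPM in replicate 2 and 147.8 TPM in replicate 1 (137.3 ± 14.9 TPM). Tubb3 at chr8:123411424-123422015 on the plus strand had 115.1 TPM in replicate 2 and 157.8 TPM in replicate 1 (136.4 ± 30.2 TPM). The order of these genes switched between the libraries, so neither can be placed above the other. Tubb6, the class V isotype at chr18:67390717-67402749 on the plus strand, had 63.5 TPM in replicate 2 and 58.4 TPM in replicate 1 (60.9 ± 3.61 TPM). Tubb2b at chr13:34126748-34130466 on the minus strand had 52.0 TPM in replicate 2 and 61.0 TPM in replicate 1 (56.5 ± 6.37 TPM), and its libraries also overlapped with those of Tubb6. For the other 7 neighbouring pairs in the order, both libraries of the higher gene lay above both libraries of the lower.

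**Figure D1:**
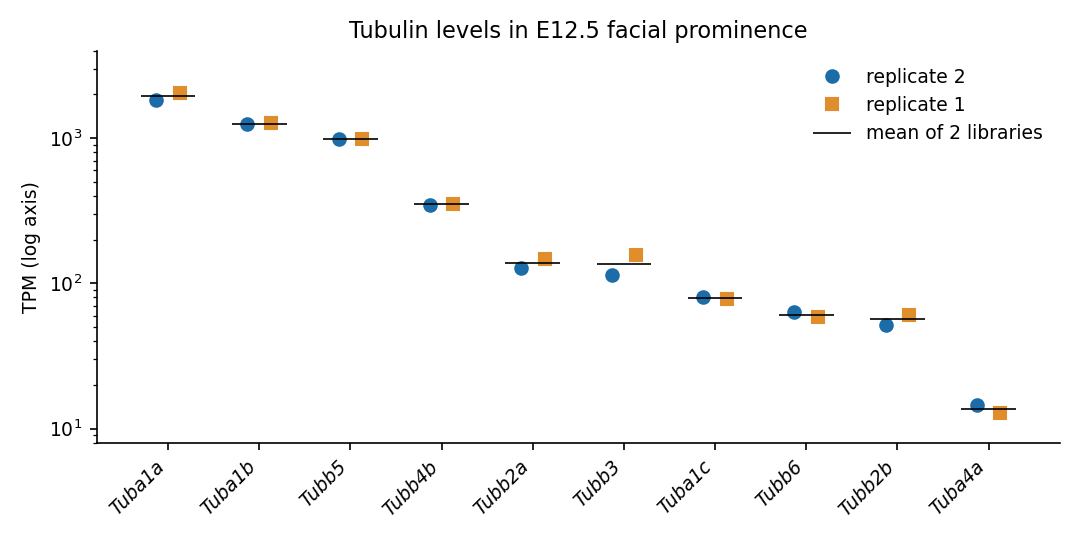
TPM of the 10 isotypes on a log axis, ordered by mean, with replicate 2 as circles to the left of replicate 1 as squares and the mean as a bar. Tuba1a, Tuba1b and Tubb5 are the 3 highest, Tubb2a overlaps with Tubb3 and Tubb6 overlaps with Tubb2b.

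Within the alpha sum of 3183 TPM in replicate 2 and 3408 TPM in replicate 1, a pair of genes made up nearly everything. Tuba1a held 57.8% of the alpha TPM in replicate 2 and 60.3% in replicate 1 (59 ± 1.76%, SD, n = 2). Tuba1b held 39.2% in replicate 2 and 37.1% in replicate 1 (38.2 ± 1.53%). The pair held 97.0% of the alpha TPM in replicate 2 and 97.3% in replicate 1. Tuba1c took 2.52% in replicate 2 and 2.28% in replicate 1, and Tuba4a 0.460% in replicate 2 and 0.373% in replicate 1.

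The beta sum was 1697 TPM in replicate 2 and 1772 TPM in replicate 1 and was spread over more genes. Tubb5 held 58.5% of the beta TPM in replicate 2 and 56.1% in replicate 1 (57.3 ± 1.72%), and Tubb4b held 20.4% in replicate 2 and 19.9% in replicate 1 (20.2 ± 0.354%). Both broadly expressed genes together held 78.9% in replicate 2 and 76.0% in replicate 1. Tubb2a, Tubb2b and Tubb3 together held 17.3% in replicate 2 and 20.7% in replicate 1. Tubb3 alone had 6.78% of the beta TPM in replicate 2 and 8.91% in replicate 1 (7.84 ± 1.5%), the widest relative spread of a beta share. Tubb2a averaged 7.90 ± 0.620%, Tubb6 3.52 ± 0.316% and Tubb2b 3.25 ± 0.268%.

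Shares of expected counts differ from shares of TPM because longer transcripts give more reads. Tubb5, with an estimated length of 2623 bases in replicate 2 against 1591 bases for Tubb4b, took 69.0% of the beta counts in replicate 2 (95% Clopper-Pearson interval 68.7% to 69.3%) and 66.7% in replicate 1 (66.3% to 67.0%). Tubb3 took 5.60% of the beta counts in replicate 2 (5.46% to 5.75%) and 7.43% in replicate 1 (7.23% to 7.62%). These intervals cover counting error only, and those of the libraries did not overlap for either gene. The summed alpha TPM was 1.88 times the summed beta TPM in replicate 2 and 1.92 times in replicate 1 (1.90 ± 0.0336). On expected counts the same ratio was 1.47 in replicate 2 and 1.52 in replicate 1. Beta genes outside the 10, such as Tubb4a, are not in these sums.

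**Figure D2:**
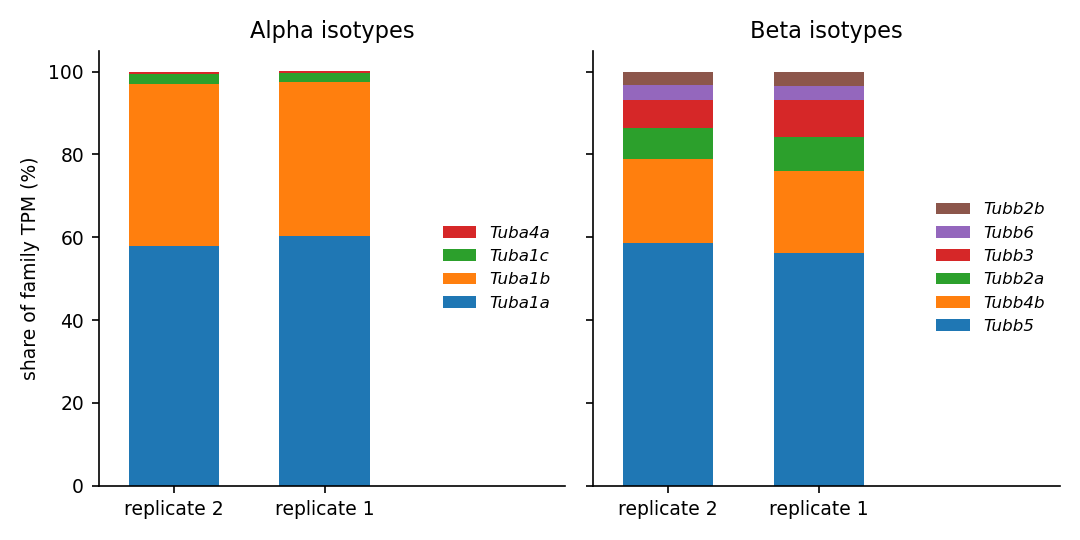
Stacked bars of the percent of the summed TPM held by each isotype, for the 4 alpha genes on the left and the 6 beta genes on the right, with replicate 2 left of replicate 1 in each panel. Tuba1a and Tuba1b fill 97.0% and 97.3% of the alpha bars of replicates 2 and 1, and Tubb5 fills 58.5% and 56.1% of the beta bars of replicates 2 and 1.

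The 10 genes have 26 annotated transcripts, and for 9 of the 10 genes a single transcript carried over 95% of the abundance in both libraries. Tubb5-201, the longest leading transcript at 2649 bases, carried 98.6% of Tubb5 in replicate 2 and 98.5% in replicate 1. Tuba1c-201 carried 96.5% of Tuba1c in replicate 2 and 96.3% in replicate 1. Tubb3-201 carried 100% of Tubb3 in both libraries. Tuba4a was the exception. Of its 8 transcripts, Tuba4a-201 carried 38.6% in replicate 2 and 42.6% in replicate 1, Tuba4a-206 carried 35.1% in replicate 2 and 21.1% in replicate 1, and Tuba4a-202 carried 13.4% in replicate 2 and 16.6% in replicate 1. These divisions of Tuba4a rest on a low count and were not stable between the libraries, and the reason was not tested.

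How far the isotypes can be told apart depends on sequence they share. Tuba1a and Tuba1b are identical at 98.3% of coding bases. Tuba1b and Tuba1c shared a run of 468 bases, Tuba1a and Tuba1c one of 446 bases, and Tubb2a and Tubb2b one of 551 bases with 96.5% of coding bases identical.

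In windows of 100 bases, the length implied by effective lengths 99 bases below the transcript lengths, 73.0% of the leading Tuba1b transcript, 65.8% of Tuba1a and 53.4% of Tuba1c were found in a transcript of another gene on either strand. For Tubb2a the share was 36.9%, of which most was with Tubb2b, and for Tubb2b it was 27.7%. Tubb4b shared 30.6% of its windows, mainly with its processed pseudogene Tubb4b-ps1, which had 0.27 TPM in replicate 2 and 0.32 TPM in replicate 1. All 27.0% of Tuba4a windows shared were with Stk16, a kinase gene on the opposite strand that overlaps with it over 1379 bases. Stk16 had 103.1 TPM in replicate 2 and 108.3 TPM in replicate 1, far above Tuba4a. No source used here gives the strand setting of the counting. Tuba4a had 617.87 expected counts in replicate 2 and 393.84 in replicate 1. Stk16 had 2844.13 in replicate 2 and 2092.16 in replicate 1. These counts are fractional. Stk16 was the only gene that shared windows with the leading Tuba4a transcript, and its other transcripts were not searched. Whether reads of the overlap were divided between Tuba4a and Stk16 was not tested. The level and ratio of Tuba4a would depend on such a division. Tubb3, Tubb5 and Tubb6 shared no window, and these are also the 3 genes whose expected counts were whole in both libraries. The counts of the other 7 were fractional, which means reads were divided between features. The split between Tuba1a and Tuba1b, and that between Tubb2a and Tubb2b, are therefore less certain than the sums of each pair, 3088 TPM in replicate 2 and 3318 TPM in replicate 1 for the alpha pair, and 178.7 TPM in replicate 2 and 208.9 TPM in replicate 1 for the beta pair. With Tuba1c, Tuba1a shared 594 windows and Tuba1b shared 799, more than the 448 windows they shared with each other. The level of Tuba1c and the sum of the alpha pair therefore also depend on how shared reads were divided. The gene Gm20388, annotated over all of Tubb3 on the same strand, held 0.95 counts in replicate 2 and 17.2 in replicate 1.

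**Figure D3:**
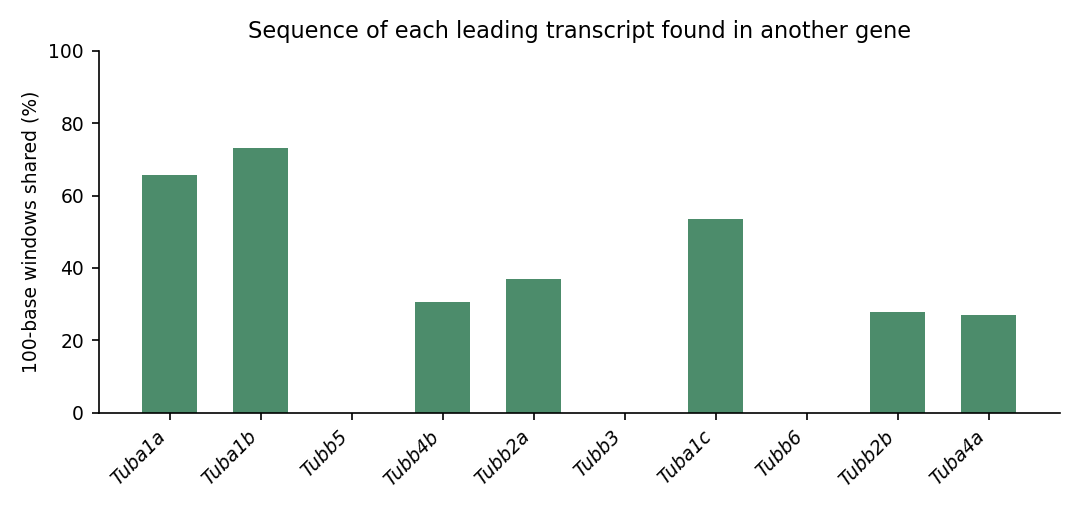
Percent of 100-base windows of each isotype's leading transcript that occur in a transcript of another gene, with isotypes ordered by mean TPM. The bars of Tuba1b, Tuba1a and Tuba1c are the highest at 73.0%, 65.8% and 53.4%, and Tubb3, Tubb5 and Tubb6 have none.

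The pools of embryos were then set against each other by the log2 ratio of TPM + 1, replicate 2 divided by replicate 1, at a threshold of 0.25. Tubb3 was the only member past it, lower in replicate 2 at a log2 ratio of -0.45, and no member was past it in the higher direction. Of the 16529 genes with a mean TPM of at least 1, 10.1% were lower and 7.74% were higher by this measure, so 1 lower gene of 10 is near the background. The higher genes were 43.3% of all genes past the threshold, and 16.9% with scaling to the spike-ins, which shifted the median log2 ratio of all genes by -0.13. Tubb3 had 5323 expected counts in replicate 2 and 5147 in replicate 1, a ratio of 0.724 after scaling to the gene totals (95% interval 0.697 to 0.753). Tubb2b at -0.23, Tubb2a at -0.22 and Tuba1a at -0.16 were also lower in replicate 2, short of the threshold. Tubb4b at -0.03, Tuba1b at -0.02 and Tubb5 at 0.00 were close to equal. Tuba4a at 0.19, Tubb6 at 0.12 and Tuba1c at 0.05 were higher in replicate 2, although Tubb6 and Tuba1c turned to -0.02 and -0.09 with spike-in scaling.

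The median log2 ratio was -0.02 over the 10 members and 0.00 over all 16529 genes. By counting error alone, the 95% interval of the count ratio lay below 1 for 6 members, against 15.0% of all genes, and above 1 for 1 member, Tubb6, against 13.1% of all genes. Intervals narrow with the count, and these shares are over genes of all depths. The interval of Tuba1a was 0.880 to 0.899 and that of Tuba1b was 0.971 to 0.996, and neither covers the uncertainty of dividing their shared reads. For the sum of Tuba1a, Tuba1b and Tuba1c, which depends less on that division, the count ratio was 0.927 (0.920 to 0.934), and for the sum of Tubb2a and Tubb2b it was 0.852 (0.824 to 0.881).

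Markers of neurons were lower along with Tubb3 in replicate 2. All 12 were lower in replicate 2, 8 of them past the threshold, with a median log2 ratio of -0.31 and summed levels of 481.4 TPM in replicate 2 and 596.6 TPM in replicate 1. Nefl, a neurofilament subunit, had 87.0 TPM in replicate 2 and 114.1 TPM in replicate 1. Gap43, a growth cone protein, had 93.5 TPM in replicate 2 and 106.1 TPM in replicate 1. No neuron marker was at 0 in either library. Markers of skeletal muscle went the other way, with all 6 higher in replicate 2, 4 of them past the threshold, and sums of 445.7 TPM in replicate 2 and 361.8 TPM in replicate 1. Without spike-in scaling, 10.1% of the 16529 genes were lower and 7.74% were higher past the threshold. With spike-in scaling 11 neuron markers were lower past the threshold, and 5 muscle markers were higher, 2 of them past it. By that scaling 20.9% of the 16529 genes were lower and 4.24% were higher past the threshold. The part of these markers in the tubulin ratios was not tested. The 6 markers of cycling cells, whose spindles use tubulin, had a median log2 ratio of 0.03, with none past the threshold.

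**Figure D4:**
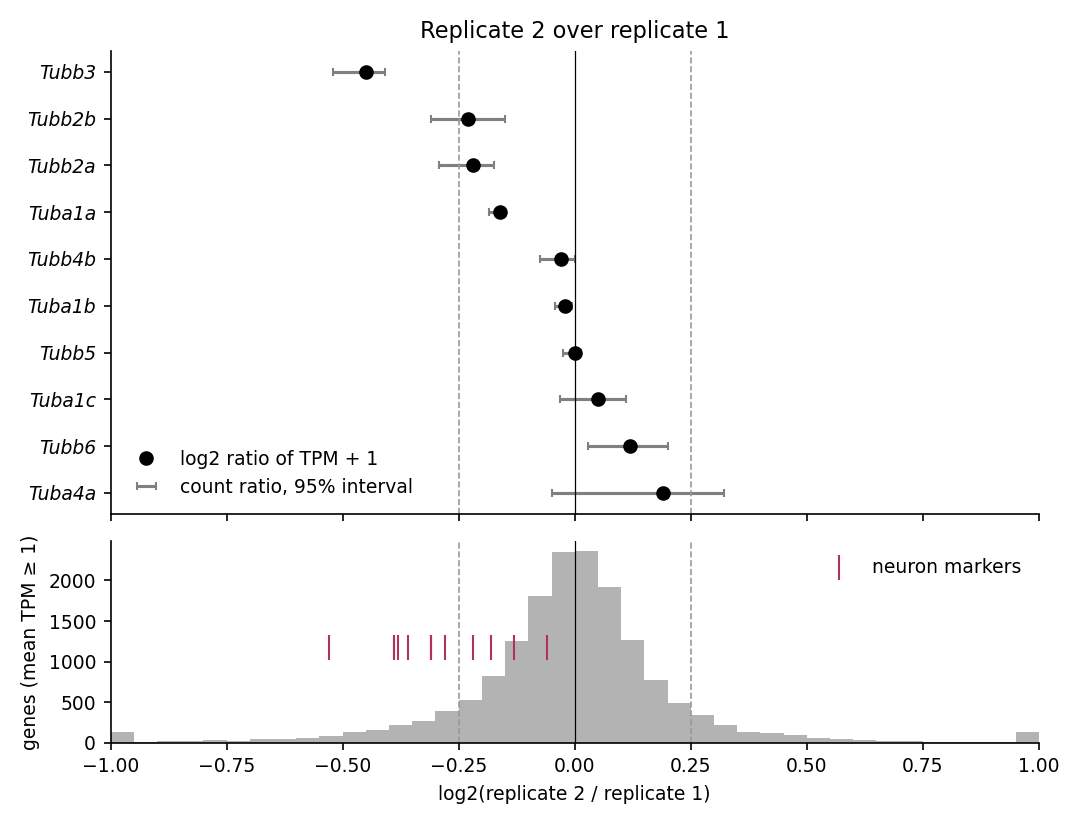
Top, the log2 ratio of replicate 2 over replicate 1 for each isotype as a point, with the 95% interval of the scaled count ratio as a line; bottom, the same ratio for 16529 genes, with neuron markers as ticks and the end bins holding all values beyond the axis. Dashed lines mark 0.25 in each direction, and Tubb3 at -0.45 is the only isotype outside them.

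Because the likeness was measured over only 2 libraries, the genes nearest in profile mainly share a level. The 3 protein-coding genes nearest to Tubb3 by distance of log2(TPM + 1) were Fabp7, a fatty acid binding protein, at a distance of 0.055, Uchl1, a ubiquitin hydrolase, at 0.141 and Tubb2a at 0.167. Fabp7 had 118.3 TPM in replicate 2 and 153.7 TPM in replicate 1. Nearest to Tuba1a were the chaperone gene Hspa8 at 0.117, the stathmin gene Stmn1 at 0.124 and the cofilin gene Cfl1 at 0.135.

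The same reads had also been quantified with the older GENCODE release M4, which gives another view of how firm these levels are. For Tuba1a the TPM was 1839 with M21 and 2168 with M4 in replicate 2, and 2054 with M21 and 2420 with M4 in replicate 1, ratios of 0.848 and 0.849 in replicates 2 and 1. Its counts hardly differed, at 0.988 and 0.989 of the M4 counts in replicates 2 and 1, while its effective length was 1.10 times that of M4. For Tubb2b the TPM was 52.0 with M21 and 65.3 with M4 in replicate 2, and 61.0 with M21 and 75.8 with M4 in replicate 1. Its effective length was 1.14 times that of M4 in replicate 2 and 1.13 times in replicate 1. The median ratio over 15344 genes was 0.95 in replicate 2 and 0.949 in replicate 1, and Tubb3, Tubb4b and Tubb5 had 0.948 in both libraries. Of these genes, 3.61% in replicate 2 and 3.68% in replicate 1 had a ratio at or below that of Tuba1a. Tuba1c was the only isotype above 1, at 1.03 in both libraries.

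**Figure D5:**
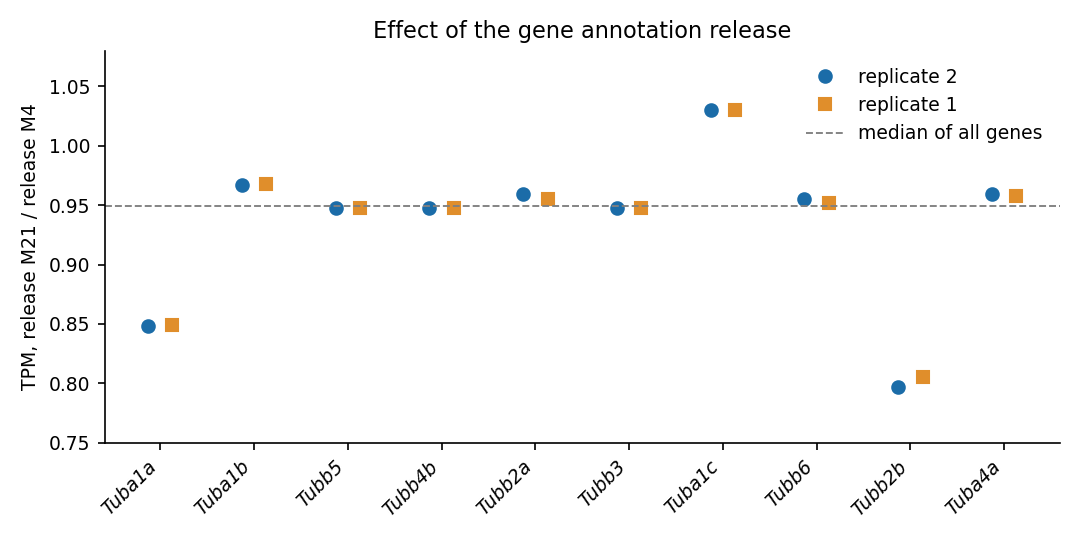
TPM made with release M21 over TPM made with release M4 for each isotype, with replicate 2 as circles left of replicate 1 as squares and the median of all genes as a dashed line. Most isotypes lie at the line near 0.95, Tuba1a and Tubb2b lie below it in both libraries and Tuba1c lies above it.

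The other tubulin genes were far lower than the leading isotypes. Tubb4a, the class IVa isotype of the brain, had 25.0 TPM in replicate 2 and 27.9 TPM in replicate 1, and Tubb1, the platelet isotype, had 3.16 TPM in replicate 2 and 3.49 TPM in replicate 1. Tuba3a, Tuba8 and Tubal3 stayed below 0.3 TPM in both libraries, and Tuba3b was listed at 0. Of the nucleating gamma tubulins, Tubg1 had 63.8 TPM in replicate 2 and 65.7 TPM in replicate 1, and Tubg2 had 7.38 TPM in replicate 2 and 8.52 TPM in replicate 1. Tube1, the epsilon tubulin of centrioles, had 18.3 TPM in replicate 2 and 15.8 TPM in replicate 1. Tubd1, the delta tubulin, had 8.76 TPM in replicate 2 and 11.0 TPM in replicate 1 and, at -0.30, was the only 1 of the 6 that passed the level filter to be past the log2 threshold.

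The machinery that folds tubulin was present throughout. All 8 subunits of the CCT chaperonin, which folds tubulin and actin, were detected, at mean levels of 198.7 to 538.2 TPM, and none passed the threshold between the libraries. The highest was Cct6a, with 533.2 TPM in replicate 2 and 543.3 TPM in replicate 1. All 6 prefoldin subunits, which hand unfolded chains to CCT, were detected at 76.4 to 345.2 TPM, and none passed the threshold. All 8 genes of the folding cofactor list were detected, with none past the threshold. Tbca, which binds folded beta tubulin, had 192.7 TPM in replicate 2 and 218.2 TPM in replicate 1, and Tbcb, which binds alpha tubulin, had 175.0 TPM in replicate 2 and 196.0 TPM in replicate 1.

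Among the enzymes that modify the tails, 14 of 20 exceeded a TPM of 1 in both libraries. Svbp, the partner of the vasohibins that remove the terminal tyrosine, was the highest, with 147.7 TPM in replicate 2 against 148.7 TPM in replicate 1. Vash2, a vasohibin, had 64.5 TPM in replicate 2 and 61.2 TPM in replicate 1. Ttl, the ligase that puts the tyrosine back, was chosen after its values were seen and had 16.3 TPM in replicate 2 and 15.2 TPM in replicate 1. Ttll6, Ttll8, Ttll9, Agbl2 and Agbl4, which add or trim glutamate or glycine chains, stayed below 1 TPM in both libraries. In this list Ttll5 was higher in replicate 2 at 0.28, and Ttll7 at -0.41 and Ttll10 at -0.27 were lower, 3 genes named after their values were seen. Of the acetylation enzymes, Atat1, the acetyltransferase of alpha tubulin, had 128.9 TPM in replicate 2 and 135.4 TPM in replicate 1, and the deacetylases Hdac6 and Sirt2 averaged 40.3 ± 2.55 and 59.8 ± 0.516 TPM (SD, n = 2).

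Among the genes of the pathway lists, the ratios ran between -0.67 for Stmn3 and 0.47 for Map7, both of which bind dimers or the microtubule wall. Of the 4 stathmins, which sequester free dimers, Stmn1 had 2003 TPM in replicate 2 and 2076 TPM in replicate 1, close to the level of Tuba1a. The other 3 were lower in replicate 2: Stmn2 at -0.38, Stmn3 at -0.67 and Stmn4 at -0.55. Stmn3 had 44.8 TPM in replicate 2 and 71.7 TPM in replicate 1. All 12 lattice-binding proteins were detected, led by Map1b with 212.7 TPM in replicate 2 and 236.8 TPM in replicate 1. Past the threshold were Mapt, the tau gene, at -0.44, Map2 at -0.29 and Map7 at 0.47, which were named after their values were seen. Stmn2 and Dcx, which binds the lattice, are also in the list of neuron markers. Over the 91 genes of all pathway lists, 81 were detected in both libraries. Of the 82 with a mean TPM of at least 1, 2 were higher and 9 were lower past the threshold, beside 7.74% and 10.1% of all genes.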

How the data were processed

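PolyA RNA-seq of 2 libraries of 1 group was analysed. Per the file headers, the gene tables hold an expected count, TPM as a maximum-likelihood and a posterior mean estimate, and FPKM, and the transcript tables hold the percent of a gene's abundance in each transcript. The deposited TPM gave levels, the deposited expected count gave depth and counting intervals, and the deposited FPKM, posterior mean TPM and isoform percent gave the alternatives and isoform shares. The assembly is mm10 per the labels, and the annotation releases are those the deposited descriptions name. No source used here names an aligner or a quantifier.

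Levels were compared by log2(TPM + 1), which understates differences of low genes, at a mean TPM of at least 1. This sets 1 library against 1, so a threshold was used and no test. Counts were rounded for Clopper-Pearson 95% intervals, which cover counting error only, since amplified reads are not independent molecules. Spike-ins and rows that name no gene, 3.10% of counts in replicate 2 and 2.85% in replicate 1 for the spike-ins, stayed out of gene totals. Scaling factors came from edgeR 4.0.16 (TMM) and DESeq2 1.42.0, after rounding counts to whole numbers. Sequences were read from the GENCODE M21 transcripts with Python 3.11.15 and pandas 2.3.3. The ratio procedure was tested on simulated data.

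The members and gene lists were chosen with earlier results of these data known. By the rule for named genes, the text could name all members, the other tubulin genes, the 4 highest genes of each list, list genes under a TPM of 1 in both libraries, all genes of lists of up to 8, and the 3 genes nearest in profile to Tubb3 and to the highest member. It gives the values of some of these and summarises the rest of each list by counts and ranges. The text says which list genes outside this rule have values printed that were seen before they were named. Also outside the rule, Dcx is named for being in both a pathway list and a marker list. Stk16 and Tubb4b-ps1 are named for shared sequence, and Gm20388 for its overlap with Tubb3. The labels call the libraries biological replicates from separate pools. Some sequences of the members are not reported here.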

Additional observations from a re-analysis of the deposited data

How the results depend on the processing

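The level of the summed isotypes was 5030 TPM on average with release M21 and 5523 TPM with M4. The Tuba1a share of alpha was 59% with M21 and 62.2% with M4, and the alpha over beta ratio was 1.90 with M21 and 2.00 with M4. With expected counts in place of TPM the Tubb5 share of beta was 67.9% instead of 57.3% and the alpha over beta ratio was 1.5. Scaling to the ERCC spike-ins shifted the median log2 ratio of all genes by -0.13 and left 4 members past the threshold instead of 1: Tubb3 at -0.59, Tubb2a and Tubb2b at -0.36 each and Tuba1a at -0.30. Relative to that shift, 1 member was past it. The share of higher genes among all genes past the threshold was 16.9% with spike-in scaling and 43.3% without it. Of the 16529 genes, 20.9% were lower and 4.24% were higher past the threshold with spike-in scaling. Tubb3 stayed past the threshold, between -0.44 and -0.59, under all 7 other scalings, pseudocounts and tables tried. The count of genes with a leading transcript over 95% was 9 under every setting tried. The detected pathway genes numbered 75 at a TPM of 5 and 81 at a TPM of 1, and between 10 and 12 passed the threshold, against 11 as reported. With spike-in scaling, an alternative for these lists chosen after seeing the data, 23 pathway genes passed it, 1 higher and 22 lower. These counts stand beside 4.24% higher and 20.9% lower of all genes with that scaling. Leaving out a replicate returns the summed level of the other library, 4880 or 5180 TPM, and so is no further check. No paired analysis was possible because there is 1 group of 2 libraries. No difference between the libraries can be judged against their spread with n = 2, because the SD is computed from that same difference.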

Other observations

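Other gene lists around microtubules and the tissue's cell types complete the picture. All 8 partners of the gamma-tubulin ring, which nucleates microtubules, were detected at mean levels of 17.4 to 80.2 TPM with none past the threshold. Among the 12 severing and plus-end factors, all detected, Mapre1 was the highest, with 222.2 TPM in replicate 2 and 192.9 TPM in replicate 1, and Spast at -0.25, named after its value was seen, was the only gene at the threshold. Of the 6 epithelial markers 1 was past the threshold, higher in replicate 2, and of the 5 cartilage markers 2 were past it, lower in replicate 2. The erythroid markers summed to 8740 TPM in replicate 2 and 9705 TPM in replicate 1, with 1 of 5 lower past the threshold. Among all 16529 genes, 10.1% were lower and 7.74% were higher past it. With spike-in scaling, chosen for these lists after seeing the data, the markers past the threshold were 1 epithelial, 3 cartilage and 4 erythroid genes, all lower in replicate 2. Lower genes past the threshold were 20.9% of all genes with that scaling. Crest-derived glia and endothelium had 5 of 5 markers detected and macrophages 4 of 5, with none of those at a mean TPM of at least 1 past the threshold.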
